A study of Mus musculus with 8 samples.

Results

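Trpm1, Crxos, Stk33, Serpina3m and C130074G19Rik were nearly lost in cells without Klf4, at 5.38% or less of the wild-type RNA level. They are 5 of 52636 gene identifiers in the count files, and all 5 were among the 15517 genes that passed the filter on low counts. They were picked by name for large falls in the KO libraries against the WT libraries, so their own KO and WT values are given as a description with no test. The KO group was E14 mouse embryonic stem cells (a line grown from the blastocyst) in which KLF4 was knocked out, with 2 RNA-seq libraries (B and F) and 1 RNA polymerase II HiChIP file that pools the replicates. The WT group was E14 cells without the knockout, with 2 RNA-seq libraries (replicates 1 and 2) and 1 pooled HiChIP file. HiChIP joins and sequences DNA ends that lie close together at sites bound by 1 protein, and counts them as paired-end tags (PETs) between pairs of anchors. The labels give the same media for both genotypes, with 15% serum, and name 10 ng/mL LIF with the inhibitors PD0325901 (1 µM) and CHIR99021 (3 µM) in one protocol and 1000 U/mL LIF in the other. The sources used here do not say whether KO libraries B and F come from 1 edited clone, nor how Klf4 was edited, so loss of KLF4 and other differences between the cells cannot be told apart.

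KLF4 is a zinc finger factor of the naive pluripotency network that binds GC-rich boxes and CACC elements in promoters and enhancers. The 5 genes are mostly known from other tissues. Trpm1 encodes a cation channel of the melastatin family that carries the light response of ON bipolar cells in the retina and is also made in melanocytes, where the E-box factor MITF drives it. Crxos is a homeobox gene beside the photoreceptor gene Crx, also called Egam1, and is known from mouse preimplantation embryos and embryonic stem cells. Stk33 encodes a serine/threonine kinase of the CAMK group that mice need for sperm formation. Serpina3m belongs to a cluster of serine protease inhibitor genes that expanded in rodents. C130074G19Rik is named after a cDNA clone.

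Promoter windows from RefSeq (GRCm38.p6, 250 bases before to 50 after a start) were at hand for 3 of the 5 genes. The 4 windows below are shown because a HiChIP anchor of the KO pool lay on the start (start 2 of Crxos and C130074G19Rik) or because a motif was found. Capitals mark a match to the KLF motif GGGNGTGG on either strand or to the E-box CACGTG. Of 32851 such mouse windows, 17.6% held the KLF motif and 7.15% the E-box. A match is a description of the letters and not a binding site.
Trpm1, start 2, chr7:64185209-64185508, plus strand: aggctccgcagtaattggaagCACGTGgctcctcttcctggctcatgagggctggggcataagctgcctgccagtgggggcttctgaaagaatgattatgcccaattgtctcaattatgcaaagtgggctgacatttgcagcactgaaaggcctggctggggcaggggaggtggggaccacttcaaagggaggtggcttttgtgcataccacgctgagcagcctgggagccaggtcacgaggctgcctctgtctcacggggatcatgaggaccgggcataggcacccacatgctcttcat
Crxos, start 2, chr7:15895874-15896173, plus strand: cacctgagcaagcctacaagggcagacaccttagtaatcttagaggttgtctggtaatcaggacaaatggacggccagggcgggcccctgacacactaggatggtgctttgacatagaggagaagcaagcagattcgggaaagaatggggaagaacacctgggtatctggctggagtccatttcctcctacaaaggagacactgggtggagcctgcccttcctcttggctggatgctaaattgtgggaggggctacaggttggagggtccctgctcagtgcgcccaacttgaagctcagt
Crxos, start 3, chr7:15901396-15901695, plus strand: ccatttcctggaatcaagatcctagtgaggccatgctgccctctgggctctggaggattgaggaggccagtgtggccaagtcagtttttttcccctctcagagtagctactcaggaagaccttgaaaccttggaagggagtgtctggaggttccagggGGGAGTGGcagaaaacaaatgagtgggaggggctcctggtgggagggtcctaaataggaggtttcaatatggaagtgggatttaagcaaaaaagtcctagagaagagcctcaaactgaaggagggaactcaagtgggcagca
C130074G19Rik, chr1:184882987-184883286, minus strand: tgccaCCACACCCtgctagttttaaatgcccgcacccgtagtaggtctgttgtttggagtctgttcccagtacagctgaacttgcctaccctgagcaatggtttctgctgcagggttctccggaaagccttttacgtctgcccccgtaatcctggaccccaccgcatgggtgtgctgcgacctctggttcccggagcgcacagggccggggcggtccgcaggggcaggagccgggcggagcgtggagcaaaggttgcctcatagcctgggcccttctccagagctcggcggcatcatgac
The KLF motif stood 245 bases before the start of C130074G19Rik, on the opposite strand as CCACACCC, and 92 bases before start 3 of Crxos as GGGAGTGG. Start 2 of Trpm1 had an E-box 229 bases upstream and no KLF motif. Start 1 of Trpm1 and starts 1 and 2 of Crxos held neither motif.

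The gene counts summed to 8448519 and 8287497 in the KO libraries (B and F), against 9020599 and 9762190 in WT replicates 1 and 2. Klf4 itself had 0 counts in both KO libraries, against 2882 and 2421 counts in the WT libraries. The 10 embryonic stem cell markers examined, Pou5f1, Nanog and Sox2 among them, were all detected, with summed levels of 8479 and 7591 CPM (counts scaled by the TMM-adjusted library size) in KO libraries, against 6847 and 8859 CPM in WT libraries. Of these markers Lin28a, an RNA-binding protein gene, was called higher, at 245.3 CPM in KO and 60.6 CPM in WT (log2 fold change 2.02, edgeR FDR 0.0038). Of 14 Y-linked genes with a WT count, 11 had 0 counts in both KO libraries, and tested genes of chromosome 14 had a median log2 fold change of -0.63. None of the 5 genes lies on either chromosome, and the part of these differences in the results was not tested. The medians were -0.09 on chromosome 7, 0.05 on chromosome 12 and 0.06 on chromosome 1, which carry them.

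Trpm1 (ENSMUSG00000030523, chr7:64153835-64269772, mm10) had 12 and 11 counts in the KO libraries (B and F), against 1070 and 1082 in WT replicates 1 and 2. Its level was 1.37 ± 0.0951 CPM in KO and 115.7 ± 2.82 CPM in WT (SD, n = 2 libraries each), so KO cells held 1.18% of the WT level, 84.4-fold less. Both KO libraries lay far below both WT libraries, and neither pair differed by more than a few CPM. In bulk RNA, fewer cells that express a gene and less RNA per cell cannot be told apart, here and for every gene below. The microRNA gene Mir211 lies inside Trpm1 and had 0 counts in either KO library, against 1 and 0 in the WT libraries.

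Crxos (ENSMUSG00000074365, chr7:15882617-15904030) had 22 and 21 counts in the KO libraries (B and F), against 565 and 929 in WT replicates 1 and 2. That is 2.56 ± 0.10 CPM in KO and 80.5 ± 29.0 CPM in WT (SD, n = 2 each), 31.4-fold lower in KO. Crxos had the widest spread of the 5 genes between WT libraries, at 60.0 and 101.0 CPM in replicates 1 and 2, whereas the KO libraries stood at 2.64 and 2.49 CPM. Crx lies 2.66 kb away and had 0 counts in both KO libraries, against 3 and 1 in the WT libraries. The strand setting of the counting is not given, so reads from overlapping transcripts of opposite strands cannot be told apart.

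C130074G19Rik (ENSMUSG00000039349, chr1:184871926-184883036) had 24 and 27 counts in the KO libraries (B and F), against 481 and 568 in WT replicates 1 and 2. Its level was 3.04 ± 0.23 CPM in KO and 56.4 ± 7.55 CPM in WT (SD, n = 2 each), 18.6-fold lower in KO. It kept the largest share of its WT level among the 5 genes, 5.38%.

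Stk33 (ENSMUSG00000031027, chr7:109279213-109439168) had 0 counts in both KO libraries, against 66 and 91 in WT replicates 1 and 2, or 7.01 and 9.90 CPM. Serpina3m (ENSMUSG00000079012, chr12:104387157-104394259) also had 0 counts in both KO libraries, against 73 and 70 in the WT libraries, or 7.76 and 7.61 CPM. A count of 0 allows up to 3 counts over both KO libraries, which is 0.179 CPM, so Stk33 was at least 47.3-fold lower and Serpina3m at least 43.0-fold lower in KO. Serpina3m differed by less between WT libraries than Stk33 did. Its reads may be shared with near-identical serpin copies, and records without a unique alignment (17.5% to 18.9% of each library) are in no gene count, so its level is uncertain.

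**Figure D1:**
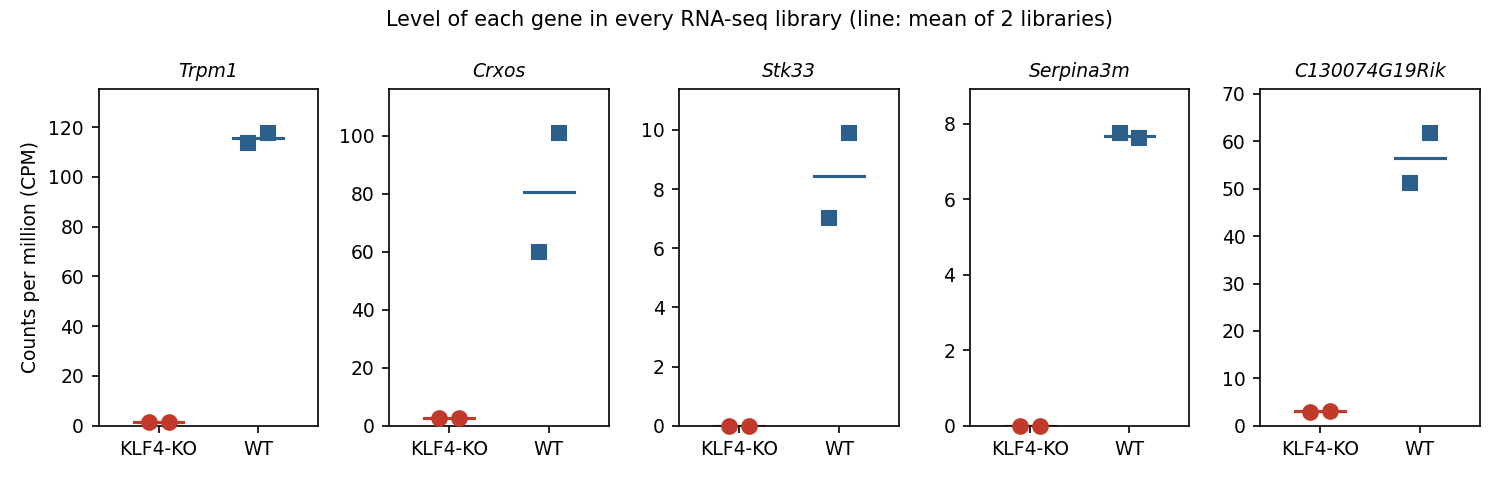
Level of each gene (vertical axis, CPM on TMM-scaled library sizes, starting at 0 and set for each gene) in the 2 KLF4-KO libraries (red circles) and the 2 WT libraries (blue squares), with a line at each mean. All KO points lie at or near 0, and the WT libraries of Crxos lie the farthest apart, at 60.0 and 101.0 CPM.

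Among 11756 tested genes with a WT mean of at least 5 CPM, 100 (0.851%) had a KO mean under 10% of the WT mean. Stk33 and Serpina3m were among the 9 of these with 0 KO counts. Trpm1 stood 11th, Crxos 30th and C130074G19Rik 46th from the lowest KO share. In all 5 both KO libraries lay below both WT libraries, as in 27.5% of all tested genes, and edgeR called 8.3% of tested genes in either direction. Since large falls chose the 5, these places and counts describe the choice.

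The genes with the most similar levels over the 4 libraries were found by the Euclidean distance in log2(CPM + 0.5), 3 for each of the 5. For Trpm1 they were Dmgdh, an enzyme of glycine metabolism (distance 1.34), the caudal homeobox gene Cdx1 (1.77) and Ly6a, which encodes the surface antigen Sca-1 (2.40). Cdx1 was the nearest gene to Crxos (1.04), followed by the cysteine dioxygenase gene Cdo1 (1.39) and Gm26751 (1.57). For C130074G19Rik the nearest were Gm26751 (0.904), Gm40977 (0.928) and Cdo1 (0.942). Pramel6, of a family active in early embryos, was nearest to both Stk33 (0.158) and Serpina3m (0.328). Pramel6 had 0 CPM in both KO libraries, against 7.86 and 9.68 CPM in WT replicates 1 and 2. Tlx2 (0.648) and Eva1c (0.775) came next for Stk33, and Gm15622 (0.653) and Fbln5 (0.706) for Serpina3m. With 4 libraries in 2 genotypes, such nearness says little beyond a like WT level and a like fall.

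The next question was whether the falls were confined to single genes or shared with their surroundings. RefSeq places 69 other genes within 200 kb of the 5, of which 53 were matched to the count files and 21 were tested. Of these 21, 6 fell and 0 rose in edgeR's quasi-likelihood test at a false discovery rate (FDR) of 0.05 over all genes, and 11 were lower and 1 was higher at an unadjusted p of 0.05. DESeq2 called 7 lower and 0 higher, and limma voom 5 lower and 0 higher. The 6 make 28.6% of the neighbours, beside 5.34% of all tested genes called lower. In 13 of the 21 both KO libraries lay below both WT libraries, and in 1 above, beside 27.5% and 26.0% of all tested genes. The median log2 fold change was -0.80, beside -0.0015 over all tested genes, which Serpina3h, with 0 KO counts, cannot change, since its bound also lies below the median. Of the 6, Obox6, Gsc and Serpina3h lay under the filter's minimum in both KO libraries. They passed it through the WT libraries and so had to be lower in KO. The same holds for Serpina3i, which was not called, and these genes also count in the 13 and in the median. Lmo1 lay under the minimum in KO library F only. Among the 15 neighbours over the filter's minimum in both KO libraries, a split made after the values were seen, 2 fell (Marc2 and Trim66, 13.3%), beside 4.06% of the 14201 such genes. Neighbours of 1 locus are not independent of each other.

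Marc2, listed by RefSeq as Mtarc2 and 25.5 kb from C130074G19Rik, encodes a mitochondrial reductase. It had 253 and 182 counts in the KO libraries (B and F), against 1384 and 1970 in WT replicates 1 and 2. Its level was 25.9 ± 6.18 CPM in KO and 180.7 ± 47.5 CPM in WT (SD, n = 2 each), a log2 fold change of -2.80 ± 0.31 (SE, edgeR FDR 0.0035). On the other side at 13.4 kb, Mark1, a kinase gene of microtubule control, had 4.36 CPM in KO and 9.26 CPM in WT (log2 fold change -1.085, edgeR FDR 0.22). Both KO libraries were below both WT libraries for both neighbours, as in 27.5% of all tested genes. Marc1, 60.2 kb away and next to Marc2, was too weak to test, with 0 counts in either KO library, against 2 and 7 in the WT libraries.

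Around Crxos, Obox6, a homeobox gene of a cluster known from oocytes, lies 42.9 kb away. It had 4 and 1 counts in the KO libraries (B and F), against 52 and 36 in WT replicates 1 and 2, a log2 fold change of -3.92 ± 0.71 (SE, edgeR FDR 0.016). Selenow, the selenoprotein W gene at 13.2 kb, had 212 and 122 counts in KO libraries, against 348 and 781 in WT libraries, and missed the threshold (log2 fold change -1.61, edgeR FDR 0.062). It passed without WT replicate 1 (FDR 1.8e-05), without KO library B (FDR 0.0044) and in DESeq2 (adjusted p 0.0045). The other 5 tested neighbours, which include the ribosome assembly gene Nop53 and the vesicle fusion gene Napa, had log2 fold changes between -1.29 and -0.21 with edgeR FDR of 0.17 or more. All 7 tested neighbours of Crxos had a negative log2 fold change, beside 50.1% of all tested genes. For Obox6 this was set in advance, as it passed the filter through the WT libraries.

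Stk33 lies between Lmo1 and Trim66, and both fell. Lmo1, which encodes a LIM-only cofactor of transcription, is 104 kb away and had 11 and 1 counts in the KO libraries (B and F), against 50 and 90 in WT replicates 1 and 2 (log2 fold change -3.37 ± 0.79, edgeR FDR 0.037). Trim66, a tripartite motif gene 9.83 kb away, had 23 and 41 counts in KO libraries, against 160 and 97 in WT libraries (log2 fold change -1.85 ± 0.45, edgeR FDR 0.042). The Trim66 call was lost without WT replicate 1 (FDR 0.068), without KO library B (FDR 0.11) and with library totals in place of TMM scaling (FDR 0.060). The next genes outward did not pass: Rpl27a, of the large ribosomal subunit, and St5, listed by RefSeq as Denn2b, had log2 fold changes of -0.31 and -0.58, and Ric3, a chaperone gene of acetylcholine receptors, -0.71 (edgeR FDR 0.66, 0.20 and 0.32). Gm9105 and 1700095J03Rik overlap the span of Stk33 and were too weak to test, with 0 counts in KO, against 4 counts and 1 count over both WT libraries.

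Of the 3 tested neighbours of Serpina3m, 2 fell. All 3 lay under the filter's minimum in both KO libraries and passed it through the WT libraries. They therefore had to be lower in KO, and their number does not set this locus apart. Serpina3h, of the same serpin cluster at 133 kb, had 0 counts in both KO libraries, against 14 and 30 in WT replicates 1 and 2, at least 13.3-fold lower (edgeR FDR 0.019). Gsc, the goosecoid homeobox gene at 77.0 kb, had 2 counts in each KO library, against 18 and 48 in the WT libraries (log2 fold change -3.83 ± 0.80, edgeR FDR 0.025). The Gsc call was lost without WT replicate 2 (FDR 0.082) and in limma voom (adjusted p 0.052). Serpina3h was not tested without WT replicate 2, since it then failed the filter. Serpina3i, at 118 kb, had 6 counts in each KO library, against 27 and 28 in the WT libraries (log2 fold change -2.03, edgeR FDR 0.063).

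None of the 4 tested neighbours of Trpm1 passed in either direction, beside 8.3% of all tested genes called. Mphosph10 was higher at an unadjusted p of 0.05. At Crxos and Serpina3m the only neighbours called (Obox6, Serpina3h and Gsc) had to be lower in KO. Those calls therefore do not set Trpm1 apart. Whether the neighbourhood of Trpm1 differs from the others was not tested. Mtmr10, a myotubularin-related gene 17.9 kb away, had 65 and 150 counts in the KO libraries (B and F), against 193 and 144 in WT replicates 1 and 2 (log2 fold change -0.50, edgeR FDR 0.52). Its KO and WT libraries overlap. Fan1, a nuclease gene of DNA crosslink repair, had a log2 fold change of -0.63 and Mcee, of propionate metabolism, 0.16 (edgeR FDR 0.42 and 0.81). Mphosph10, a ribosomal RNA processing gene, had 980 and 1115 counts in KO libraries, against 767 and 791 in WT libraries (log2 fold change 0.57, edgeR FDR 0.17).

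**Figure D2:**
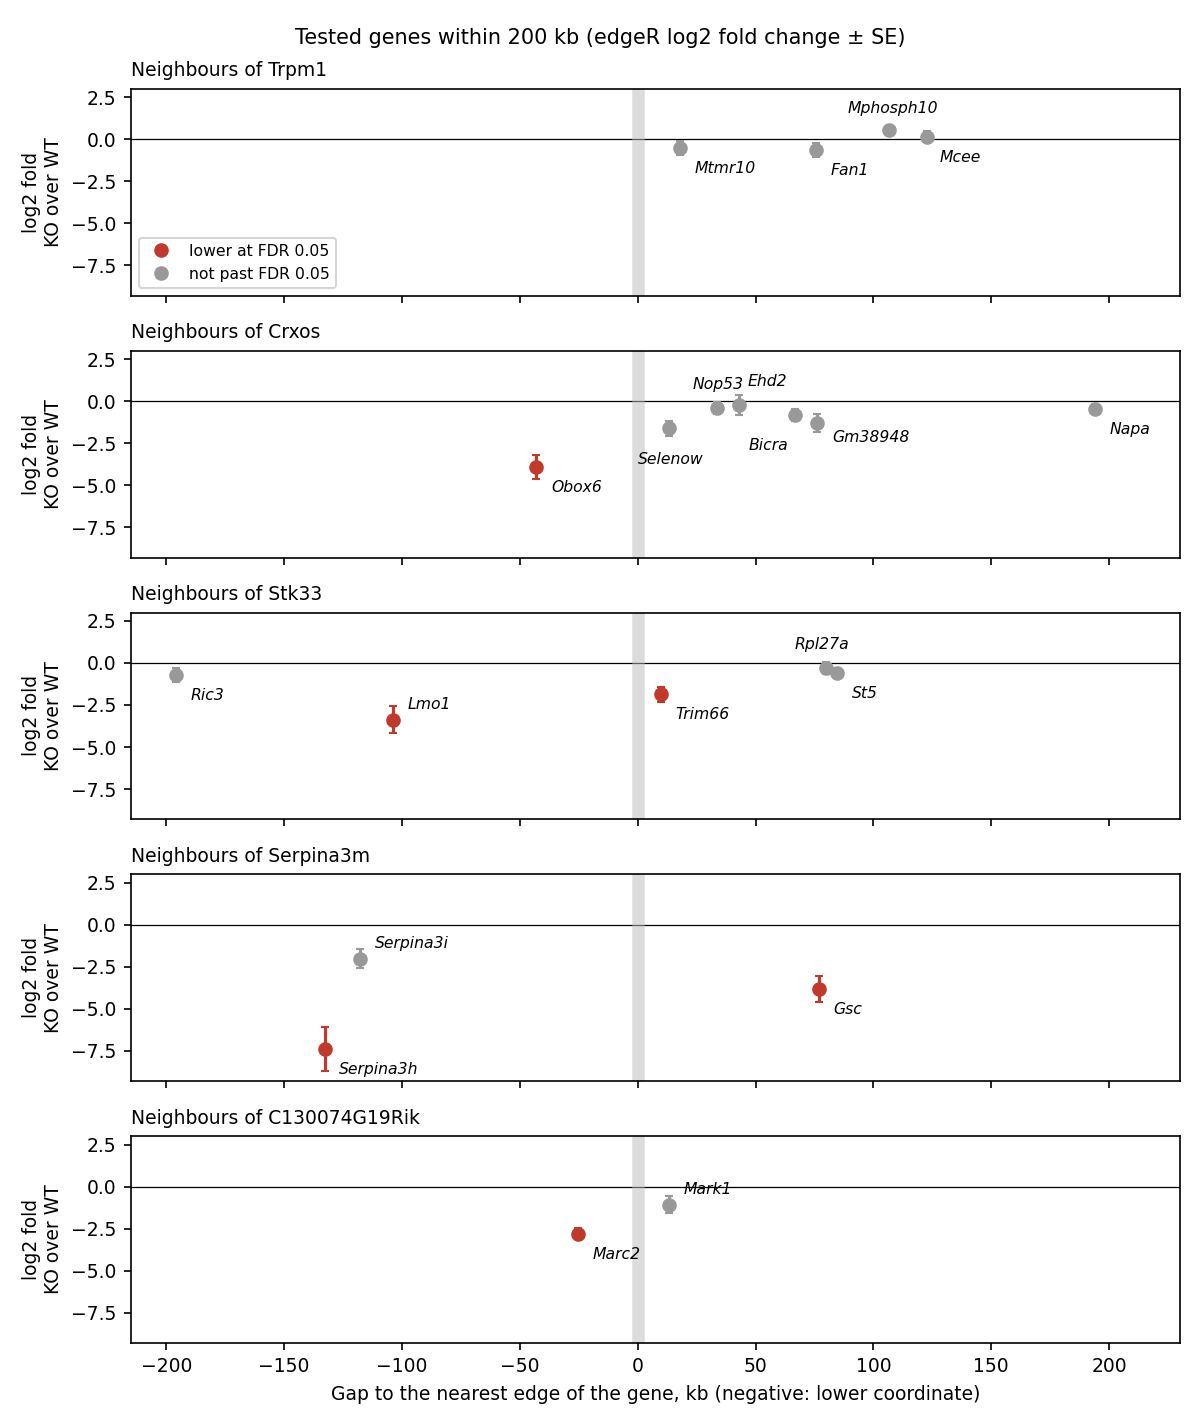
Fitted log2 fold change, KO over WT, with its SE (vertical axis) of the 21 tested genes within 200 kb, against the gap in kb to the nearest edge of each of the 5 genes (horizontal axis, negative on the side of lower coordinates; grey bar, the gene itself). Red points, 6 in all, were lower at an edgeR FDR of 0.05, and none of them lies beside Trpm1. The fitted value of Serpina3h, which has 0 KO counts, depends on the prior count and is no bound.

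Relatives of the genes were examined in 4 lists. Of 74 genes listed, 32 were tested, 5 fell (15.6%) and 2 rose (6.25%), beside 5.34% and 2.96% of all tested genes. All 5 that fell (Trpm6, Serpina3h, Obox6, Gsc and Dclk3) lay under the filter's minimum in at least 1 KO library and over it in both WT libraries. Their count therefore does not set the lists apart. The number lower was 9 without WT replicate 1, 3 without KO library F and 8 in DESeq2. The number higher was 4 without WT replicate 1. Of the tested relatives, 4 (Obox6, Gsc, Serpina3h and Serpina3i) are also neighbours described above.

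Among the channels related to Trpm1, 4 of 7 were tested and 1 fell. Trpm6, a magnesium channel with a kinase domain, had 2 and 0 counts in the KO libraries (B and F), against 19 and 24 in WT replicates 1 and 2, so after scaling for library size the WT counts were 19.4 times the KO counts (95% interval 5.06 to 165.0 by an exact method that covers counting error only; edgeR FDR 0.032). The Trpm6 call was lost without KO library F (FDR 0.12). Trpm7, the related and broadly expressed channel kinase, had 151.9 ± 45.0 CPM in KO and 109.7 ± 40.8 CPM in WT (SD, n = 2 each, edgeR FDR 0.43), and passed as higher once WT replicate 1 was left out (0.90 on the log2 scale, FDR 0.048). Trpm5 and Trpm4 had log2 fold changes of -0.54 and -0.18 (edgeR FDR 0.53 and 0.74).

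Of 22 other Serpina genes of the chromosome 12 cluster, 16 had no count in any library and only Serpina3h and Serpina3i were tested. In WT libraries Serpina3m had more reads than any of the 22. In the paired-like homeobox list, which covers relatives of Crxos, 4 of 20 were tested, of which 2 fell and 1 rose. Otx2, a regulator of the move out of naive pluripotency, went the other way from Obox6 and Gsc, at 46.3 ± 10.6 CPM in KO and 4.46 ± 0.46 CPM in WT (SD, n = 2 each, edgeR FDR 0.0025). It lies on chromosome 14. Esx1, an X-linked homeobox gene of the placenta, differed by 0.42 on the log2 scale (edgeR FDR 0.59). Crx itself was too weak to test.

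Of the 25 CAMK group kinases around Stk33, 22 were tested, 1 rose and 1 fell, with a median log2 fold change of -0.35 beside -0.0015 over all tested genes. Camkv, a kinase-like calmodulin binder of neurons, had 567 and 362 counts in the KO libraries (B and F), against 86 and 66 in WT replicates 1 and 2 (log2 fold change 2.76, edgeR FDR 0.0044). Dclk3, of the doublecortin-like kinases, had 15 and 7 counts in KO libraries, against 53 and 57 in WT libraries (log2 fold change -2.16, edgeR FDR 0.044), a call lost without KO library F (FDR 0.17) and with library totals (FDR 0.051). Dclk2 and Phkg1 had log2 fold changes of -0.997 and -1.20 and missed the threshold (edgeR FDR 0.054 and 0.055). Dclk2 passed without WT replicate 2 (FDR 0.0019) and in DESeq2, and Phkg1 without WT replicate 1 (FDR 0.048) and in DESeq2.

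**Figure D3:**
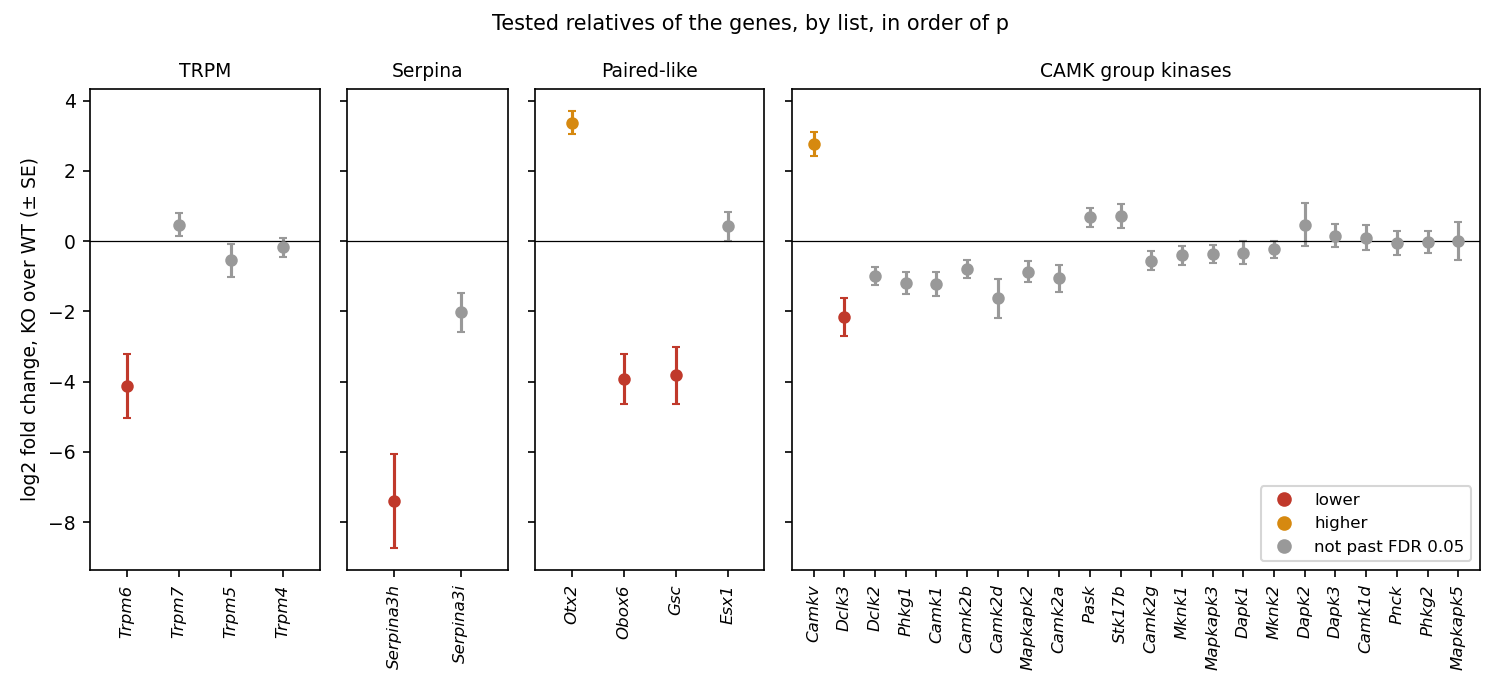
Fitted log2 fold change, KO over WT, with its SE (vertical axis) of the 32 tested relatives in the 4 lists, each in order of p (horizontal axis, gene names). Red points (5) were lower and orange points (2, Otx2 and Camkv) higher at an edgeR FDR of 0.05.

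Markers of cells in which these genes are best known were looked up because such cells could bring in their RNA. The 10 melanocyte markers summed to 26.4 and 31.3 CPM in the KO libraries (B and F), against 61.0 and 60.2 CPM in WT replicates 1 and 2, with the pigment enzyme genes Tyr and Dct at 0 in every library and Tyrp1 at 1 count in all. Mlana fell (log2 fold change -2.52, edgeR FDR 0.023), with 9 and 7 counts in KO libraries, against 47 and 56 in WT libraries. It lay under the filter's minimum in both KO libraries and passed it through the WT libraries, so it had to be lower in KO. Mitf and Pmel made most of the melanocyte sum. Mitf had 82 and 155 counts in KO libraries, against 299 and 207 in WT libraries (edgeR FDR 0.17). Pmel had 112 and 89 counts in KO libraries, against 209 and 264 in WT libraries (edgeR FDR 0.075). Sox10 went the other way, with 17 and 10 counts in KO libraries, against 4 and 12 in WT libraries (edgeR FDR 0.49). Gpr143 was too weak to test, with 0 counts and 1 count in KO libraries, against 13 and 8 in WT libraries. The 10 retinal bipolar markers summed to 4.67 and 5.69 CPM in KO libraries, against 5.95 and 4.46 CPM in WT libraries. The 10 hepatocyte markers summed to 2.52 and 1.42 CPM in KO libraries, against 6.70 and 9.46 CPM in WT libraries, mostly from Ahsg, which fell (edgeR FDR 0.0335), with Alb and Afp at 0 throughout. Ahsg lay under the filter's minimum in KO library F only. The 10 spermatid markers summed to 1.92 and 2.37 CPM in KO libraries, against 2.44 and 2.72 CPM in WT libraries, with Prm2, Tnp1, Odf1 and Akap4 at 0. Fibroblast and feeder markers, 10 in all, summed to 27.2 and 20.6 CPM in KO libraries, against 29.0 and 29.2 CPM in WT libraries. The part of any such cells in the results was not tested.

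HiChIP was set against these falls as a measure that had not chosen the genes. The KO pool held 401726 PETs in 118475 pairs and the WT pool 35189 PETs in 19914 pairs, an 11.4-fold difference in depth, with anchors called separately in each and a median anchor width of 2932 bp in KO and 1999 bp in WT. With 1 pool per genotype there is no replicate and no test. An anchor within 5 kb of the gene was present for 2 of the 5 genes in the KO pool and for 0 of the 5 in the WT pool. Among all tested genes with a position, 77.7% had one in the KO pool and 56.4% in the WT pool. Among genes under the count filter the shares were 14% in the KO pool and 7.38% in the WT pool.

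Crxos carried an anchor in the KO pool (chr7:15893951-15896707) that covers its second start, although its RNA was at 2.56 CPM there. This anchor took part in 7 pairs with 13 PETs (exact Poisson 95% interval 6.92 to 22.2, for counting error only). Of these PETs 4 lay within the anchor, 2 joined it to an anchor at Selenow, 27.4 kb from centre to centre, and 3 to one in Nop53, at 43.6 kb. Single PETs reached Kptn, Slc8a2 and the apoptosis gene Bbc3 at 225, 235 and 416 kb, and 1 a site 11.6 Mb away. The WT pool had 0 PETs at Crxos (exact Poisson 95% interval 0 to 3.69). The KO value scaled to the WT depth comes to 1.14 PETs, which is within that interval. At Klf4 the KO pool had 2 PETs at 1 anchor and the WT pool 9 PETs at 2 anchors. Scaled to the WT depth, the KO value at Klf4 comes to 0.175 PETs.

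C130074G19Rik likewise had a KO anchor over its start (chr1:184881512-184883748), with 4 pairs and 5 PETs (exact Poisson 95% interval 1.62 to 11.7). Within the anchor lay 2 of them, single PETs joined it to a pair of anchors in Rab3gap2 at 322 and 327 kb, and 1 joined it to a site 48.6 Mb away. Rab3gap2 was the only gene within 500 kb of the 5 that was called higher (log2 fold change 0.96, edgeR FDR 0.048). It was picked after its value was seen. The WT pool had 0 PETs at C130074G19Rik, while the KO value scaled to its depth comes to 0.438 PETs. The start of Marc2 lay in an anchor of both pools, with 5 PETs in KO and 1 PET in WT.

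Trpm1 and Stk33 had no anchor in or within 5 kb of their spans in either pool, nor did Serpina3m. Around Trpm1, 5 KO anchors and 4 WT anchors lay within 200 kb, and the nearest, over the start of Mtmr10 at 17.0 kb in both pools, had 7 PETs in KO and 2 in WT. Stk33 had 2 anchors within 200 kb in each pool. The KO anchors, at Rpl27a 77.9 kb away and inside Denn2b, had 121 and 106 PETs, and the WT anchors, both at Rpl27a, had 26 and 38 PETs. Serpina3m had 1 KO anchor with 1 PET, 38.7 kb away, and 0 WT anchors within 200 kb. Neither pool therefore gives a contact value for Trpm1, Stk33 or Serpina3m in WT cells, where their RNA was made.

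**Figure D4:**
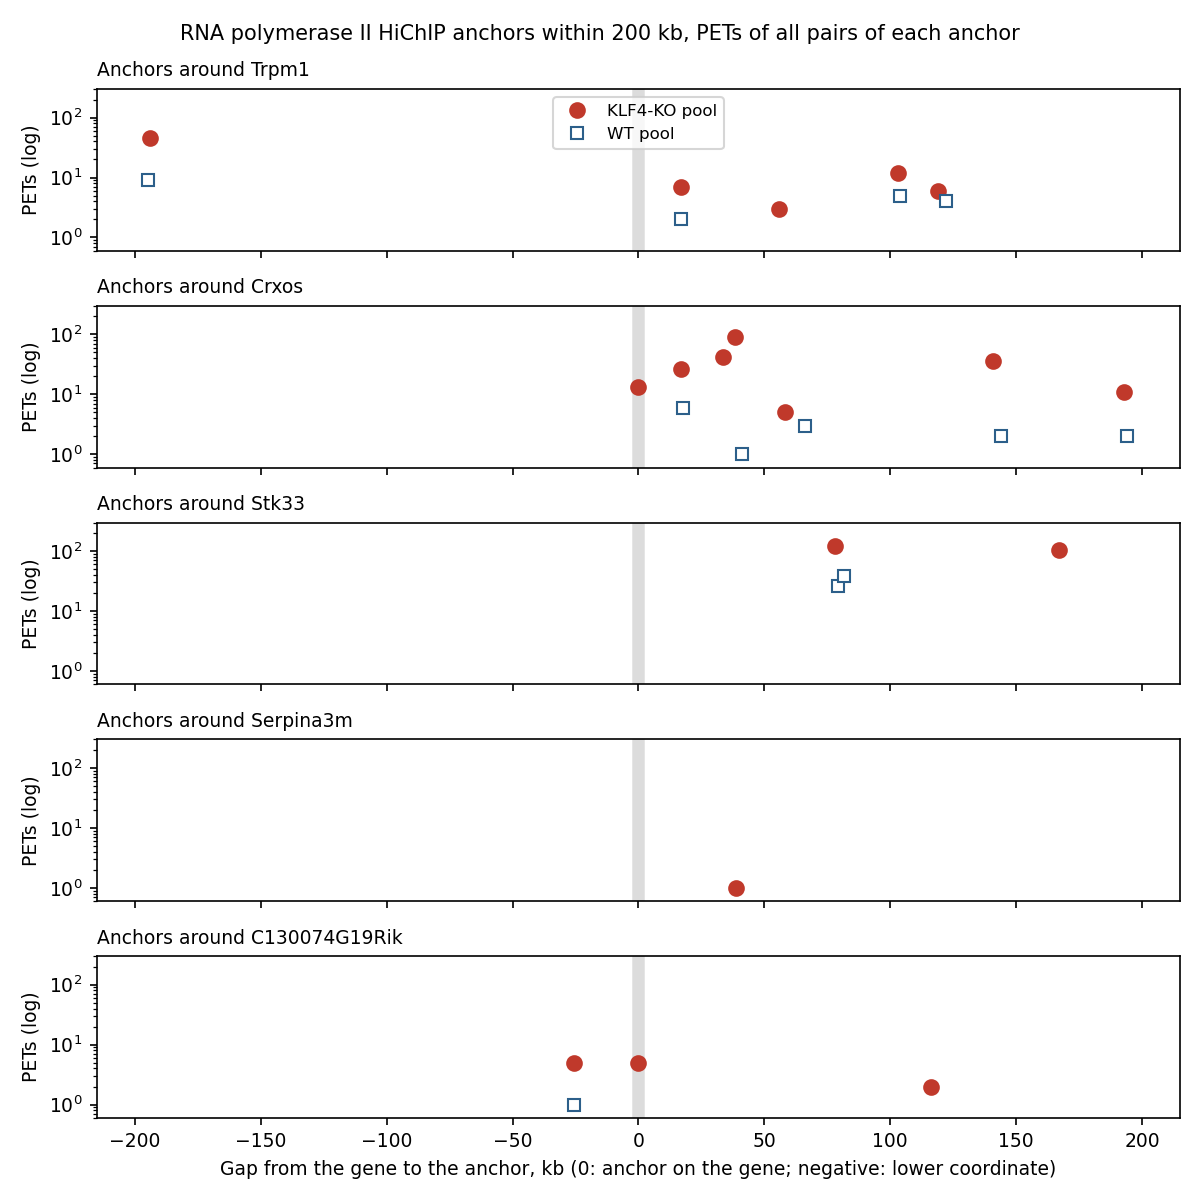
PETs summed over all pairs of each anchor (vertical axis, log scale) against the gap in kb from the gene to the anchor (horizontal axis, 0 where the anchor lies on the gene, grey bar) in the KLF4-KO pool (red circles) and the WT pool (open blue squares), within 200 kb of each of the 5 genes. Anchors on the gene itself are seen for Crxos (13 PETs) and C130074G19Rik (5 PETs), both in the KO pool, which was 11.4-fold deeper.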

How the data were processed

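Gene expression was measured in 4 RNA-seq libraries and RNA polymerase II contacts in 2 pooled HiChIP files. Named in the submitters' processing notes, with no roles, are HiC-Pro 2.11.4, HTSeq 0.9.1, HISAT2 2.1.0, DESeq2 1.18.1 and the mm10 build. The sources used here give no annotation release, strand setting or loop caller. The deposited values are raw counts, of reads per Ensembl gene and of PETs per pair of anchors. Summary rows of each file were left out, and 34.5% to 36.0% of records lay in genes.

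The test of KO against WT was the quasi-likelihood test of edgeR 4.0.16 under R 4.3.3 (TMM, filterByExpr, genotype only, 2 residual and 6.29 prior degrees of freedom), with Benjamini-Hochberg adjustment over 15517 genes and an FDR threshold of 0.05. The test was checked on simulated counts. Alternatives were RLE factors, library totals, DESeq2 1.42.0, limma voom (3.58.1), other filters and leaving out each library. The p-values measure the spread between libraries that the labels call biological replicates. Symbols matched 52403 of 52636 identifiers, and positions and promoters came from RefSeq GRCm38.p6 by symbol or synonym. Positions were found for 14343 tested genes. Named are the 5 genes, neighbours that passed, the nearest tested neighbour on each side, up to 4 relatives per list with the smallest p and 3 genes of like pattern; others were chosen after their values were seen. The members and lists were chosen with earlier results of these data known.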

Additional observations from a re-analysis of the deposited data

How the results depend on the processing

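The log2 ratio of KO over WT mean CPM kept its sign for all 5 genes under both other scalings and without each library. Leaving out a library moved it between -6.47 and -6.32 for Trpm1, -5.31 and -4.58 for Crxos, and -4.35 and -4.11 for C130074G19Rik. For Stk33 it ranged between -5.80 and -4.55 and for Serpina3m between -5.47 and -4.41, since a bound against 3 counts rises with 1 KO library less. Over all genes, 828 were lower and 460 higher, with 618 to 1366 lower and 387 to 1151 higher on leaving out each library (the highest of both without WT replicate 1). A fit with 1 library of a genotype assumes that it varies like the other genotype. The neighbours called lower numbered 6, with 4 to 6 on leaving out each library, and 4 of 14 within 100 kb or 7 of 48 within 500 kb, where 1 was higher. Relatives called lower ranged from 3 to 9 and higher from 2 to 4 on leaving out each library, and DESeq2 called 8 lower. With no expression filter edgeR called 1 gene lower and 1 higher of all, 0 neighbours (10 lower and 1 higher at an unadjusted p of 0.05) and 0 relatives (14 lower and 3 higher), the cause of which was not tested. The alternatives were run for 20 named neighbours and relatives, none of which changed sign, and not for Nop53, Napa, Rpl27a, St5, Ric3, Fan1, Mcee, Mphosph10 and Rab3gap2. PETs at the 5 genes stayed within their counting intervals with a 10 kb margin and with a minimum of 2 PETs a pair (9 at Crxos and 2 at C130074G19Rik in the KO pool). Under that minimum the 2 PETs left at C130074G19Rik lay within its anchor, and its single PETs to Rab3gap2 and the distant site were dropped. Windows around starts gave no value for Stk33 and Serpina3m. No paired analysis was possible because the KO columns carry letters and no replicate number. Counts under about 10 per library, as for Gsc and Trpm6 in KO, limit precision, and the WT HiChIP depth limits every contact value.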
